A study of Brassica napus with 6 samples.

Results

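AT1G52790, AT1G52800, AT1G52810 and AT1G52820, Arabidopsis loci with consecutive numbers on chromosome 1, form a row of genes for 2-oxoglutarate-dependent oxygenases. Each was read by 1 probe set of the Arabidopsis ATH1 array (260147_at, 260148_at, 260149_at and 260150_at), so 4 of the 22746 probe sets tested belong to the cluster, and all 4 loci were matched. The loci were selected with the contrast described here already known, so their values are given as a description and no test of them is reported. Their Entrez gene numbers, 841712 to 841715, are also consecutive. The annotation names them only by locus, and the family name comes from general knowledge of Arabidopsis genes.

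The RNA came from oilseed rape (Brassica napus) roots of the cultivar Nourin No.16, raised in hydroponics. Roots of the cadmium plus GSH group were kept for 2 days in solution with 10 µM CdCl2 and 100 mM reduced glutathione (GSH), and roots of the cadmium only group for the same 2 days in 10 µM CdCl2 without GSH. Both groups therefore carried cadmium, and plants without cadmium were not analysed here. The labels disagree on plant age, which one of them puts at 4 weeks and the growth protocol at 2 to 3 weeks. Each group had 3 samples described as biological replicates, with 1 array each. The sources used here do not say whether a sample pooled several plants. The probes match Arabidopsis transcripts, so a value stands for whatever oilseed rape transcripts bind them, and a low value does not show a low transcript level. In whole roots, fewer cells of a type and less RNA per cell cannot be told apart.

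Oxygenases of this superfamily bind iron and use molecular oxygen; most of them also consume 2-oxoglutarate, releasing succinate and carbon dioxide as they hydroxylate, desaturate or cyclise a small molecule. Plants use them widely in specialised metabolism and hormone turnover. Examples are the oxidases that make and inactivate gibberellins, the ACC oxidases that form ethylene, the AOP enzymes that modify glucosinolate side chains, and the hydroxylases that make coumarins which roots release under iron shortage.

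Most probe sets read the same on every array. Of the 22746 tested, 2428 (10.7%) ranged by over 0.01 on the log2 scale of the deposited values and are called varying here. Between arrays, the correlation across the varying probe sets was 0.982 to 0.990 within the cadmium plus GSH group, 0.951 to 0.979 within the cadmium only group and 0.910 to 0.974 between the groups. Limma with Benjamini-Hochberg adjustment called 0 of the 2428 (0%) at 0.05, while 312 (12.9%) had an unadjusted p under 0.05, 150 higher and 162 lower with GSH. Centring each array on the median of the varying probe sets shifted that split to 190 higher and 127 lower. A plain two-sample test called 0 adjusted and 254 unadjusted. The number of arrays limits the precision. Of 9 root markers 3 were matched (EXPA7, EXPA18 and PYK10), with means from 6.50 to 7.06. Of 11 green tissue markers 2 were matched (LHCB4.1 and RCA), at 6.07 and 6.04. EXPA7, PYK10, LHCB4.1 and RCA were constant over the arrays. LHCB4.1 lay above the highest of the bacterial controls described below (6.05). The marker levels are therefore not read as a check of the tissue.

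Signal over background was judged against 27 control probe sets for bacterial genes. The highest of them had a mean of 6.05 and read 6.05 on each of the 6 arrays. Across the cluster, AT1G52790 and AT1G52820 lay above 6.05 on all 3 cadmium plus GSH arrays and on 0 of 3 cadmium only arrays. AT1G52810 lay above it on all 6 arrays, and AT1G52800 on none of the 6. Of the 2428 varying probe sets, 43 (1.77%) had a cadmium plus GSH mean above 6.05 and a cadmium only mean at or below it. AT1G52790 and AT1G52820 are among the 43, and since the loci were chosen from this contrast nothing is read from that.

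AT1G52790, the first locus of the row, had log2 signals of 7.28, 6.31 and 6.97 on the cadmium plus GSH arrays, against 5.70, 5.76 and 6.02 on the cadmium only arrays. Every cadmium plus GSH array was higher than every cadmium only array, and the lowest cadmium plus GSH array lay 0.29 above the highest cadmium only array. The means were 6.85 ± 0.50 with cadmium plus GSH and 5.83 ± 0.17 with cadmium only (SD, n = 3 each), a measured log2 difference of 1.03. The cadmium only mean was not above the highest bacterial control, so the difference is given as a bound. With that control level taken as the floor, the mean signal was at least 1.74-fold higher with cadmium plus GSH. Whether 6.05 is the right floor for this probe set was not tested. This bound allows only for the unknown level on the cadmium only side, not for the spread of the cadmium plus GSH arrays.

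The arrays of AT1G52790 were widely spread within the groups. The SD of 0.50 among its cadmium plus GSH arrays was greater than that of 99.4% of the varying probe sets, for which the median SD in this group was 0.04. Its SD of 0.17 among cadmium only arrays exceeded that of 87.9% of them, with a median of 0.05. Cadmium plus GSH replicate 2, at 6.31, was the array nearest to the cadmium only group. Without replicate 1 of the cadmium plus GSH group the measured difference was 0.81, and without replicate 2 it was 1.301.

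AT1G52820, the last locus of the row, had log2 signals of 6.19, 6.14 and 6.18 on the cadmium plus GSH arrays, against 5.97, 6.03 and 5.95 on the cadmium only arrays. The groups did not overlap here either, with a gap of 0.11 between the nearest arrays. The means were 6.17 ± 0.03 with cadmium plus GSH and 5.98 ± 0.04 with cadmium only (SD, n = 3 each), a measured log2 difference of 0.19. The cadmium only mean was again not above the highest bacterial control. The bound against that level, in the same sense, was a mean signal at least 1.09-fold higher with cadmium plus GSH. In contrast to AT1G52790, the replicates lay close together, and 37.0% of the varying probe sets had a smaller SD among cadmium plus GSH arrays.

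AT1G52810 had log2 signals of 6.18, 6.30 and 6.35 on the cadmium plus GSH arrays, against 6.12, 6.25 and 6.28 on the cadmium only arrays. The groups overlapped, since 2 of the 3 cadmium only arrays lay above the lowest cadmium plus GSH array. The means were 6.28 ± 0.09 with cadmium plus GSH and 6.21 ± 0.09 with cadmium only (SD, n = 3 each). The log2 difference of 0.06 was smaller than the SD of either group. Leaving out 1 array moved it to 0.01 without cadmium only replicate 1 and to 0.03 without cadmium plus GSH replicate 3. It was 0.09 without cadmium only replicate 3 and 0.11 without cadmium plus GSH replicate 1. Between arrays with the same replicate number, the differences were 0.063, 0.055 and 0.068 for replicates 1, 2 and 3. Whether the numbers pair the samples is not known. Of the 4 loci, AT1G52810 alone lay above the bacterial controls in both groups, so its difference is given without a bound.

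AT1G52800 had the same log2 signal, 5.90, on all 3 cadmium plus GSH arrays and on all 3 cadmium only arrays. Its 6 values ranged by 1.5e-08, the size of rounding. It was not above the highest bacterial control in either group. A constant value of this kind carries no information on the treatment, so for AT1G52800 neither a change nor its absence can be read.

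**Figure D1:**
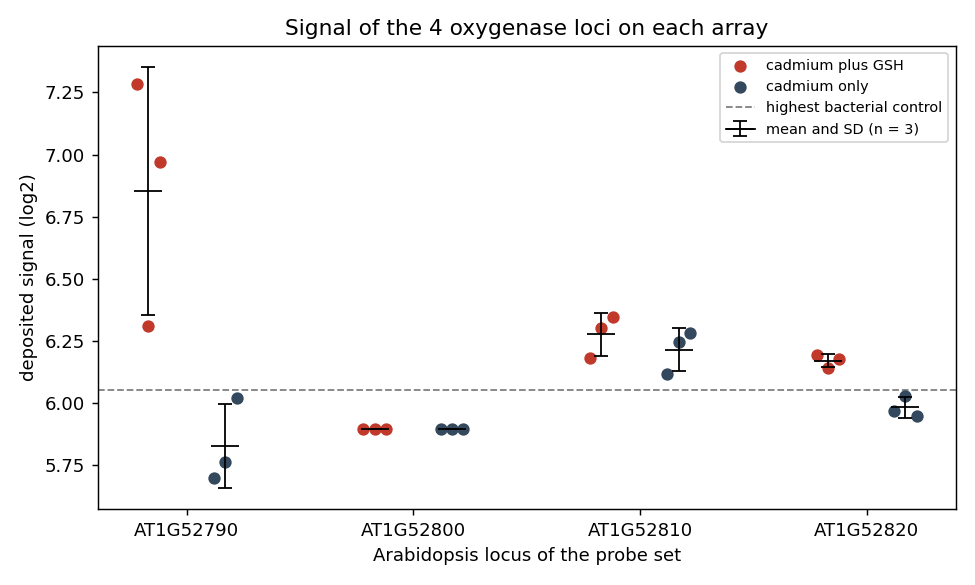
Deposited log2 signal (vertical axis) of the 4 loci on each array, with cadmium plus GSH to the left of cadmium only; points are arrays, bars are mean and SD (n = 3), and the dashed line is the highest bacterial control at 6.05. AT1G52790 and AT1G52820 lie above the line on cadmium plus GSH arrays and below it on cadmium only arrays, AT1G52810 lies above it throughout and AT1G52800 is constant below it.

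In all, 2 of the 4 loci had every cadmium plus GSH array above every cadmium only array, 1 had overlapping groups and 1 was constant. Among all varying probe sets 216 (8.90%) had every cadmium plus GSH array above every cadmium only array and 239 (9.84%) had the reverse. The mean was higher with cadmium plus GSH in 1196 (49.3%), and the median difference over the varying probe sets was -0.00072. For the same reason, the count of 2 is not read against these shares.

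**Figure D2:**
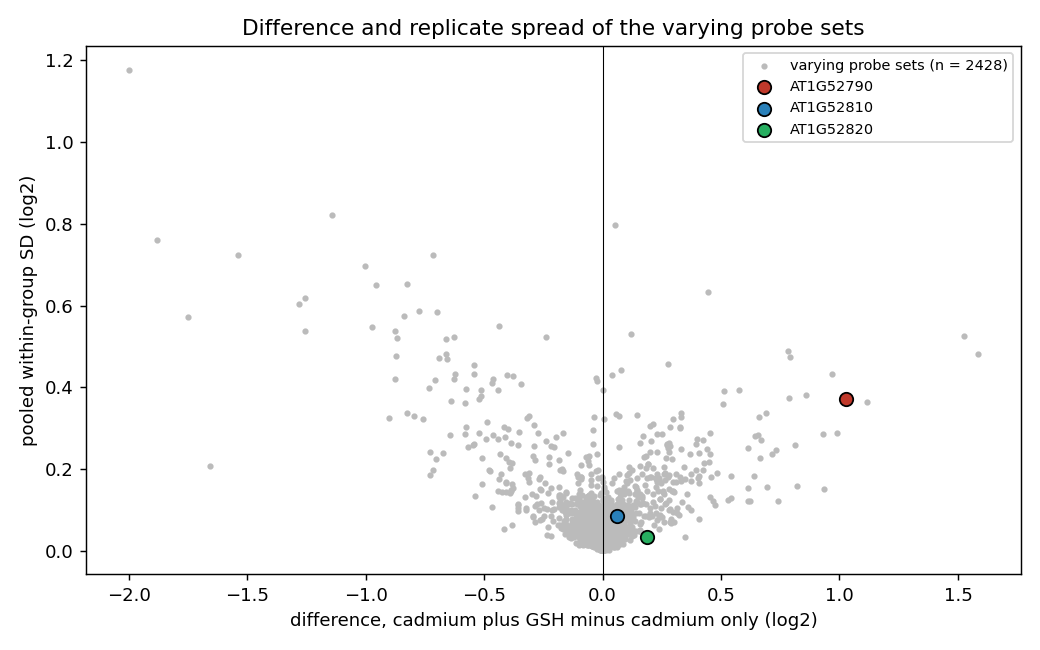
Log2 difference of cadmium plus GSH minus cadmium only (horizontal axis) and pooled within-group SD in log2 units (vertical axis) of the 2428 varying probe sets (grey), with the 3 varying loci of the cluster in colour. AT1G52790 combines a measured difference of 1.03 with a wide spread, AT1G52820 a difference of 0.19 with a narrow one, and AT1G52810 lies near 0 at 0.06.

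The 3 varying loci did not all follow each other from array to array. Over the 6 arrays, Pearson's r was 0.88 between AT1G52790 and AT1G52820, 0.26 between AT1G52790 and AT1G52810, and 0.35 between AT1G52810 and AT1G52820. Once each group's mean was taken off, these values were 0.38, -0.18 and -0.15. The 0.88 thus falls to 0.38 among arrays of the same group. These coefficients describe 6 arrays in 2 groups and carry no test. The probe sets share the arrays and their normalisation, and whether 1 oilseed rape transcript binds the probes of several of these related loci was not tested.

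Other loci that the annotation names only by a number, from AT1G52500 to AT1G53100, were taken as neighbours. Loci in this stretch that it names by a gene symbol, or does not name, were not included. Of 35 such loci read by 1 probe set each, 31 were constant and 4 (11.4%) varied. The nearest of these loci on either side of the row, AT1G52770, of the NPH3 family of phototropism proteins, and AT1G52840, were both constant, at 5.66 and 5.52. Limma called 0 of the 4 varying neighbours before or after adjustment, and their median difference was 0.03. Over all varying probe sets limma called 12.9% before and 0% after adjustment, so the 0 of 4 is not read as a result. The locus AT1G53080, of the legume lectin family, had means of 6.11 ± 0.002 with cadmium plus GSH and 6.03 ± 0.10 with cadmium only (SD, n = 3 each), a difference of 0.08. It was the single neighbour with non-overlapping groups, and its cadmium only mean was not above the bacterial controls. Its log2 signals were 6.115, 6.111 and 6.115 with cadmium plus GSH, against 6.098, 6.085 and 5.919 with cadmium only. Cadmium only replicates 1 and 2 lay above the control level of 6.052 and close to the cadmium plus GSH arrays. The difference thus rests mostly on cadmium only replicate 3. Among all varying probe sets 8.90% had every cadmium plus GSH array above every cadmium only array and 9.84% the reverse. The other varying neighbours differed by 0.04 for AT1G52910, 0.03 for AT1G52510 and -0.02 for AT1G53035, all with overlapping groups. AT1G52510 was likewise not above the controls with cadmium only, at 6.046 against 6.052.

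**Figure D3:**
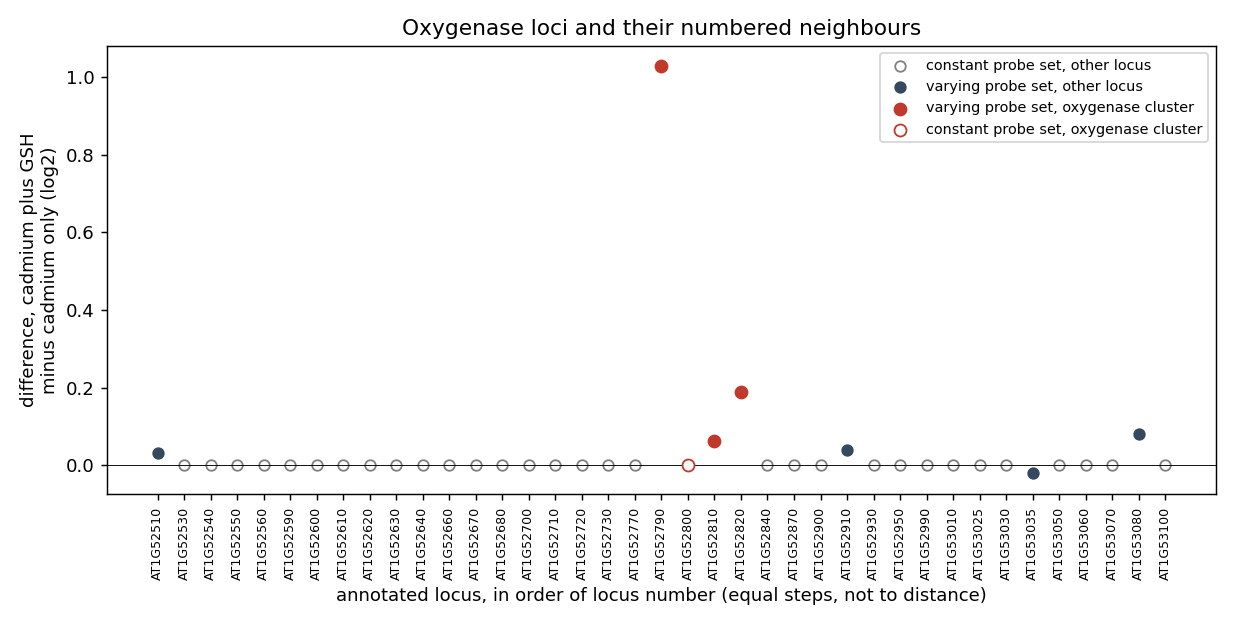
Log2 difference of cadmium plus GSH minus cadmium only (vertical axis) for each locus from AT1G52510 to AT1G53100 that the annotation names only by number. Loci are placed in order of locus number. Loci named by a gene symbol are not shown. Red marks the oxygenase cluster and open circles are constant probe sets. The points of AT1G52790, AT1G52820, AT1G52510 and AT1G53080 are measured differences whose cadmium only mean was not above the bacterial controls, and the oxygenase loci were chosen from this contrast.

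Related oxygenases elsewhere in the genome were followed in 5 lists with 91 planned loci, of which 48 were matched. Of these 48 probe sets 43 were constant and 5 (10.4%) varied. All 5 had overlapping groups, and limma called 0 of them before or after adjustment. Over all varying probe sets it called 12.9% before and 0% after adjustment. Non-overlapping groups were seen in 8.90% (higher with GSH) and 9.84% (lower). With 5 probe sets, counts of 0 are not read as a result about these oxygenases. The differences of the 5 had a median of 0.01, against -0.00072 over all varying probe sets, and reached 0.10 at most.

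Among 6 loci related to the AOP enzymes of glucosinolate side-chain modification, 4 were matched. AOP1 and AOP3 were constant. AT1G28030 had means of 6.58 ± 0.03 with cadmium plus GSH and 6.62 ± 0.03 with cadmium only (SD, n = 3 each), a difference of -0.04. AT1G80320 differed by 0.01 and was not above the bacterial controls in either group.

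Among 20 ACC oxidases and their relatives, 15 were matched and 13 of those were constant. AT1G12010, an ACC oxidase, which catalyses the last step of ethylene synthesis, had log2 signals of 7.74, 7.82 and 7.55 with cadmium plus GSH, against 7.56, 7.57 and 7.68 with cadmium only. Its groups overlapped and its difference was 0.10. AT5G59530 differed by 0.03, with both means below the bacterial control level.

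Among 41 other oxygenases of the superfamily, 29 were matched and 28 of those were constant, including AT3G13610, which makes the precursor of scopoletin, and AT1G14130, which oxidises auxin. AT3G12900, the scopoletin hydroxylase that makes the iron-mobilising coumarin fraxetin, had means of 6.22 ± 0.05 with cadmium plus GSH and 6.22 ± 0.07 with cadmium only (SD, n = 3 each), a difference of -0.002. The 16 gibberellin oxidases and the 8 flavonoid oxygenases had 0 matched loci and were not analysed here.

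The genes most like each varying locus were taken as those with the highest Pearson's r over the 6 arrays among 1188 other varying probe sets with 1 annotated gene. Such coefficients describe 6 points, of which the 2 groups share a large part, and no test is given. For AT1G52790, 16 genes had r over 0.9. The 5 highest were AT1G62510, of the lipid-transfer protein superfamily, at 0.981, AT1G68040, a methyltransferase, at 0.981, the aspartyl protease AT1G01300 at 0.974, the aspartyl protease AT5G07030 at 0.964 and AT3G58550, of the lipid-transfer protein superfamily, at 0.961. With group means taken off, r stayed between 0.842 and 0.963 for these 5. AT1G62510 was not above the bacterial controls in either group, and AT1G01300 was not above them with cadmium only. The other 3 genes were above them in both groups, with log2 differences of 0.26 for AT1G68040, 0.12 for AT5G07030 and 0.09 for AT3G58550. AT1G68040 had log2 signals of 6.56, 6.26 and 6.37 with cadmium plus GSH, against 6.09, 6.11 and 6.20 with cadmium only, so its groups did not overlap and replicate 2 was again the lowest cadmium plus GSH array.

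For AT1G52820, 21 genes had r over 0.9. The highest was AT4G11290, a class III peroxidase, at 0.995. It had log2 signals of 6.98, 6.83 and 6.93 with cadmium plus GSH, against 6.18, 6.47 and 6.22 with cadmium only. On both loci the cadmium only array nearest to the other group was replicate 2, and the cadmium plus GSH array nearest to the cadmium only group was replicate 2. The next were AT5G05960, of the lipid-transfer protein family, at 0.964, the defensin-like gene LCR69 at 0.958, AT4G25870 at 0.958 and UBC28, a ubiquitin-conjugating enzyme, at 0.950. AT4G25870 was not above the bacterial controls in either group, and the other 4 genes were above them in both. With group means taken off, r was 0.942 for AT4G11290 and 0.533 to 0.755 for the rest.

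For AT1G52810, 10 genes had r over 0.9, and the likeness lay within the groups. AT3G33066 had r of 0.996, and 0.998 with group means taken off, but its probe set was not above the bacterial controls in either group. AT2G19970, of the family of pathogenesis-related protein 1, had r of 0.973, AT1G19230, an NADPH oxidase of the respiratory burst type, 0.960, the transcription factor gene SNZ 0.934 and AT1G73710, of the pentatricopeptide repeat family, 0.931. AT1G19230 was the one of these 5 with signal above the bacterial controls. Its log2 signals were 6.85, 7.001 and 7.19 with cadmium plus GSH, against 6.69, 7.02 and 6.98 with cadmium only, and its groups overlapped as those of AT1G52810 did.

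**Figure D4:**
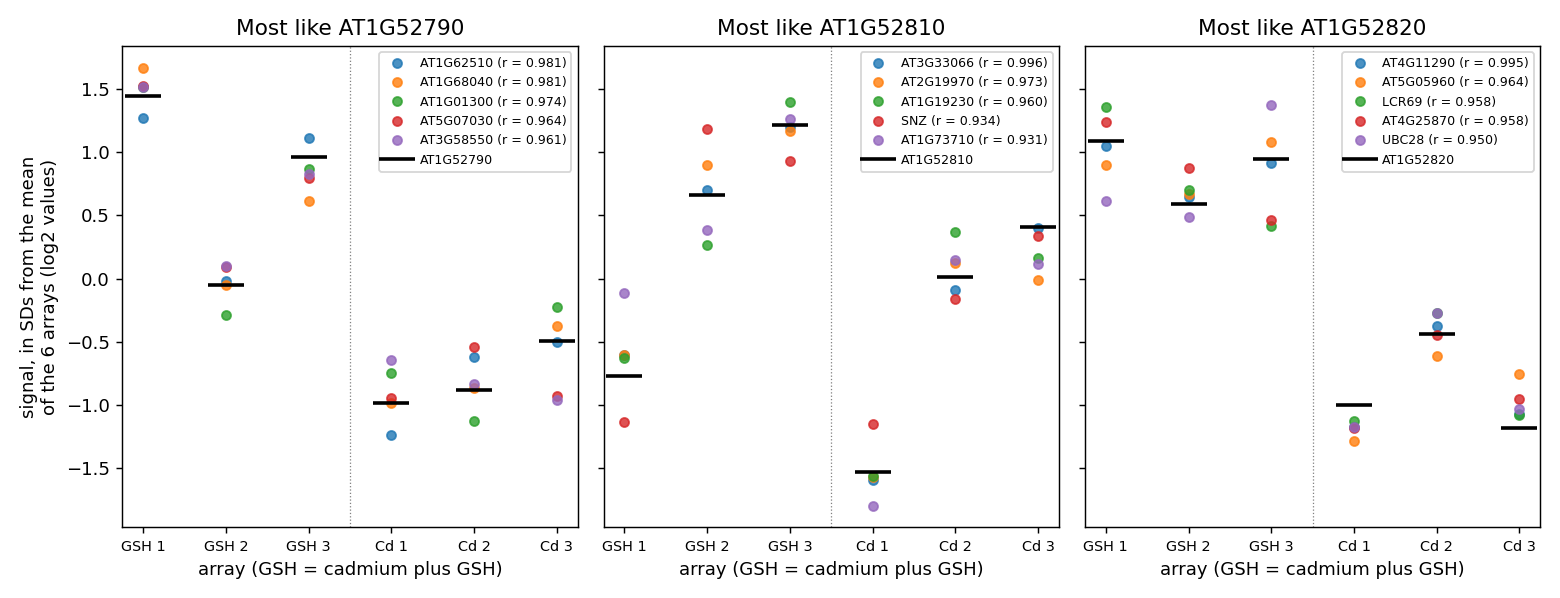
Signal on each array (horizontal axis, cadmium plus GSH left of cadmium only) for AT1G52790, AT1G52810 and AT1G52820 (black bars) and the 5 genes most like each (points), in SDs from the mean of the 6 arrays (vertical axis). The genes were picked for their likeness to each locus; AT1G01300 overlaps between the groups although AT1G52790 does not.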

How the data were processed

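Total RNA was extracted from roots and biotin-labelled cRNA was hybridised to 1 Affymetrix array per sample, per the labels' protocols. The authors deposited 1 log2 value per probe set and array. The log base is not stated and was inferred from values between 5.20 and 11.40. Per the submitters' processing notes R 2.7.2 was used; background correction, normalisation and probe-set summary are not given in the sources used here. Scan dates and slides are not given either, so no batch was tested, and no sequence was used here.

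The table has 22810 probe sets; 64 controls were kept apart. The annotation gave 1 gene name for 13513 of the 22746 tested, several for 503 and none for 8730. The fit used limma 3.58.1 in R 4.3.3 (lmFit, eBayes, Benjamini-Hochberg, threshold 0.05) on the 2428 probe sets ranging by over 0.01. On simulated data for this comparison with 2428 probe sets, it recovered 87.8% of changes of 0.5 and 95.9% of changes of 1 (log2), and made 9.5 false calls on average. The simulation drew independent noise with each probe set's own SD and raised the values of randomly picked probe sets. Its recovery averages over probe sets that mostly have a narrow spread. It does not give the recovery for a widely spread probe set such as that of AT1G52790. The adjusted threshold also depends on how many probe sets change, which was set in the simulation and is unknown in the real data. The recovery rates therefore do not tell how many real changes were missed. The 0 adjusted calls do not show that changes of 0.5 or 1 were absent. Each limma p-value weighs a group difference against the spread between samples of the same group. Limma moderates that spread across the probe sets in the fit. Bounds are the cadmium plus GSH mean minus the mean, over cadmium only arrays, of the higher of the probe set's own value and the highest bacterial control.

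The loci and lists were chosen with earlier results of these data known. Named genes are the 4 loci, up to 4 varying genes per list by size of difference and the 5 genes most like each varying locus by Pearson's r. Genes described as constant, markers and the nearest listed neighbour on either side of the row were named besides. List loci came from general knowledge of Arabidopsis. Alternatives were quantile normalisation, median centring, a floor, other range limits, leaving out dim probe sets, an intensity trend, a replicate block, a plain two-sample test and leaving out each array.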

Additional observations from a re-analysis of the deposited data

How the results depend on the processing

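AT1G52790, AT1G52810 and AT1G52820 kept a positive difference under every alternative run. For AT1G52790 and AT1G52820, whose groups did not overlap, leaving out an array, the floor and the replicate block could not have reversed the sign. Leaving out 1 array at a time gave 0.81 to 1.301 for AT1G52790, 0.01 to 0.11 for AT1G52810 and 0.17 to 0.21 for AT1G52820; AT1G52810 fell to 0.01 without cadmium only replicate 1, to 0.03 without cadmium plus GSH replicate 3, and was 0.11 without cadmium plus GSH replicate 1 and 0.09 without cadmium only replicate 3. With a floor at the highest bacterial control AT1G52820 differed by 0.12 and AT1G52790 by 0.80, since the cadmium only values were raised to the floor. AT1G52800, constant as deposited, differed by 0.000105 after quantile normalisation and by 0.0123 after median centring, which shift every constant probe set, and by 2.7e-09 to 7.2e-09 when arrays were left out. Of the 8 means of 4 loci in 2 groups, 4 lay above the highest bacterial control and 8 above the median of the control means (5.66). Of the 9 varying list genes and neighbours, 5 ranged by over 0.1.

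The count of adjusted calls in limma, 0 as reported, was 3 (1 higher, 2 lower) after quantile normalisation, 5 (3 higher, 2 lower) at a range over 0.1 and 42 (26 higher, 16 lower) with all probe sets, and 0 to 13 when 1 array was left out, with 13 without cadmium only replicate 3. In a fit with a replicate block, by replicate number, the count was 0, with 301 unadjusted, and the differences of the 4 loci stood at 1.03, 5.3e-09, 0.06 and 0.19, which a block cannot move when each number occurs once in each group. For deviations from the group means, correlations between arrays with the same number ran from -0.21 to 0.13. Those of other pairs ran from -0.23 to 0.32, and 1 of 3 cadmium plus GSH arrays correlated best with its own number. With 3 arrays per group, these values cannot tell whether the numbers pair the samples.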
